A study of Mus musculus with 6 samples.

Results

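Liver endothelial cell genes were described in whole liver RNA of mice with and without TLR3, an endosomal receptor for double-stranded RNA. They are 38 genes chosen by name as markers of endothelial cells, out of 19938 genes that had a probe set with 1 gene symbol on the array. No measured value entered the choice, but earlier results of these data were known when it was made. Of them, 14 were set apart as sinusoidal genes and 24 as pan-endothelial genes. The livers came from untreated mice at 3 months of age, 3 TLR3-/- and 3 TLR3wt (C57Bl/6), bred by the submitters under SPF conditions, with 1 array per mouse. How the TLR3-/- allele was made, which cells carry it and the sex of the mice are not given in the sources used here. The probe set for Tlr3 itself (10578493) stood at the lowest value of the table, 5, on all 6 arrays, so it did not check the genotype labels.

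Endothelial cells line all blood vessels. Those of the liver sinusoids are unusual in that they are fenestrated and lack a continuous basement membrane, and they clear macromolecules from the blood through scavenger and lectin receptors such as stabilins and mannose receptor. They also secrete signals to hepatocytes: WNT2, WNT9B and RSPO3 maintain the gene programme around the central vein, and BMP2 with BMP6 induces hepcidin, the hormone of iron balance. Genes shared by endothelium of all vessels encode junction proteins, receptors for VEGF and angiopoietins, and transcription factors of the ETS and SOX families.

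Each value is a log2 RMA signal, a brightness that can be compared for 1 probe set between mice but not between genes. Each array had 15081 to 15226 probe sets above 5, which served as the floor, and the number of mice limits the precision. Of the 38 genes, 35 were above the floor on at least 1 array and 31 on all 6. Icam2, Sox7 and Sox17 stood at 5 on all arrays and were left out. Both classes of marker were measured, including the defining sinusoidal genes Stab2, Clec4g, Lyve1 and Oit3 and the pan-endothelial genes Cdh5, Kdr, Pecam1 and Tie1. The label of a liver endothelial signature thus met with signal in every mouse.

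The promoters of 22 of the 38 genes were found in RefSeq (assembly GRCm38.p6). Shown here are the 250 bases before the start of 3 genes that were close in mean between the genotypes, Stab2, Clec4g and Kdr, and of Cldn5, the member with the smallest unadjusted p, all picked after their values were seen. Each runs 5′ to 3′ on the strand of the gene, and capitals mark AGGAAG or CGGAAG, core letters bound by ETS factors such as ERG, on either strand.
Stab2, chr10:87007943-87008192, minus strand: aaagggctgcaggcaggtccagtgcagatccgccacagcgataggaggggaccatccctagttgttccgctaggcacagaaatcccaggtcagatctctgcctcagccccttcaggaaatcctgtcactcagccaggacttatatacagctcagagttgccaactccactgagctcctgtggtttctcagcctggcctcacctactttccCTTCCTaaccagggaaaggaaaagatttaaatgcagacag
Clec4g, chr8:3720652-3720901, minus strand: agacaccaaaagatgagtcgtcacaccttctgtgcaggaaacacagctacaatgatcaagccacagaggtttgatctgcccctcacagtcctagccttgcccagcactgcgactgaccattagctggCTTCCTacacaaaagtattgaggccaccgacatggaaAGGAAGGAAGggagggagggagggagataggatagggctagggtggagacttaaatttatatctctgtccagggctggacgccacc
Kdr, chr5:75978456-75978705, minus strand: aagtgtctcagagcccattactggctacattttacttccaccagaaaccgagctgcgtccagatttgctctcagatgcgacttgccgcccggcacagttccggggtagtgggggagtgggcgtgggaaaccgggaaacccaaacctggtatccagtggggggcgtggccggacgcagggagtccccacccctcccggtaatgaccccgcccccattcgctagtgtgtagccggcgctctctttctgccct
Cldn5, chr16:18776597-18776846, plus strand: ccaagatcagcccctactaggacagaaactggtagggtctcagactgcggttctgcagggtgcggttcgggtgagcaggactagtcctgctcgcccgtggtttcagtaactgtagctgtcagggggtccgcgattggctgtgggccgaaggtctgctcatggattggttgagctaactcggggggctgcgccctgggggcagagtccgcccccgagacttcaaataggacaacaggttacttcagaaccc
The promoter of Clec4g held 3 matches, beginning 123, 86 and 82 bases before the start, and the last 2 of them overlapped. Stab2 held 1, beginning 40 bases before the start, while Kdr and Cldn5 held 0 in this window. The endothelial genes had 26 promoters in the table, some genes with several starts. AGGAAG was in 53.8% of these (14 promoters of 13 genes) and in 29.5% of all 32851 promoters over the same length, while CGGAAG was in 7.69% against 13.6%. Either of these cores was in 53.8% against 39.2%. The GATA letters AGATAA were in 3.85% of them against 9.99% of all, and the SOX letters AACAAT in 11.5% against 9.42%. Both strands were searched for every motif, and a match describes the letters only.

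The medians of the endothelial genes differed little between livers of the genotypes. The median log2 difference, TLR3-/- minus TLR3wt, was 0.02 for the 14 sinusoidal genes and 0.0066 for the 21 measured pan-endothelial genes, beside 0.03 for all 10347 genes tested. After quantile normalisation again these medians were -0.0027 and -0.03, and with centred arrays -0.0099 and -0.02, so neither has a settled sign. Of the 35 genes, 17 had a lower mean in TLR3-/- livers and 18 a higher one, and 32 differed by less than 0.3. In the limma test across all probe sets 0 of the 35 passed an adjusted p of 0.05. There 0.186% of the 16639 probe sets and 0.087% of the 10347 genes tested passed. Without a filter on low values 0 of all 35557 probe sets passed in limma, so that fit says nothing about the 35. In the fit with the filter 3 of 35, or 8.57%, had an unadjusted limma p under 0.05, against 15.7% of all genes tested. Of these Lyve1 and Pecam1 were lower in TLR3-/- livers, as were 5.56% of all genes tested at that p, and Cldn5 was higher, as were 10.1%. The genotypes did not overlap in 4 of 35, or 11.4%, against 22.7% of all genes tested. Of these Lyve1, Pecam1 and Vwf were lower, beside 7.62% of all genes tested, and Cldn5 was higher, beside 15.1%. The shares in either direction together lay under the background. Those of lower genes alone, 2 of 35 at that p and 3 of 35 apart, lay close to it and slightly above. In RNA from whole liver, fewer cells of a type and less RNA per cell cannot be told apart.

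**Figure D1:**
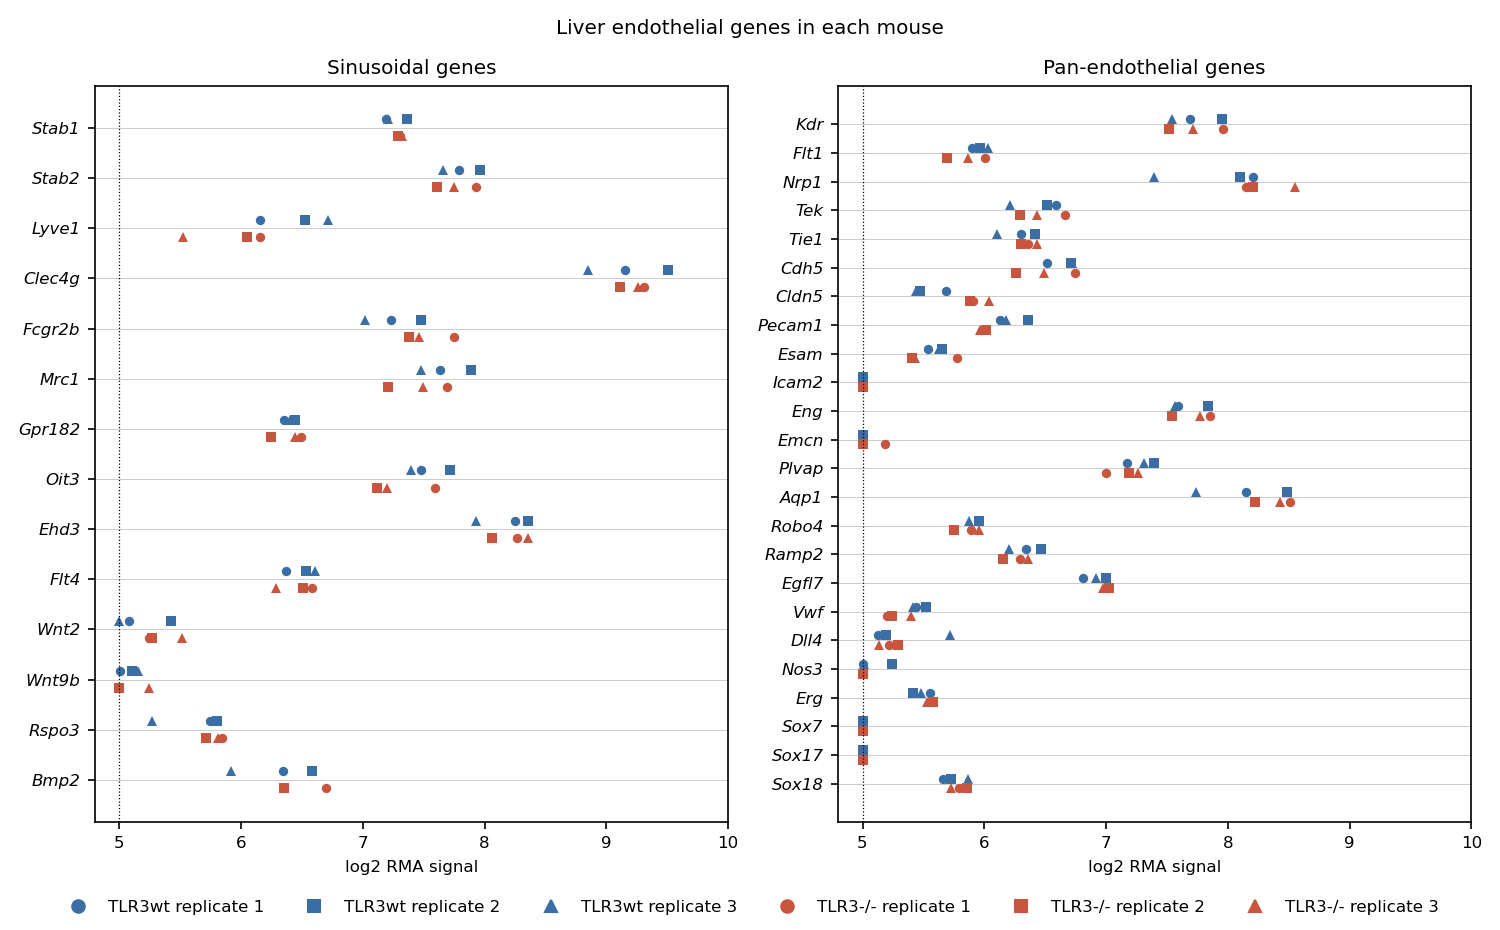
Log2 RMA signal of the 38 endothelial genes (rows) in each of 6 mice, TLR3wt in blue and TLR3-/- in red, with a marker shape for each replicate and a dotted line at the floor of 5, where points of several mice coincide. The genotypes overlap in all measured genes but Lyve1, Cldn5, Pecam1 and Vwf.

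For genes well above the floor, the intervals of the single genes bound what could have gone unseen. The 95% interval reached a median of 0.27 to either side of the difference on the log2 scale, from 0.14 to 0.57 over the genes. For 25 of the 35 genes the whole interval lay between -0.5 and 0.5, and for 34 between -1 and 1. Macrophage and Kupffer cell markers are the contrast within these livers, since 17 of 18 measured had a lower mean in TLR3-/- livers, where 39.1% of all genes tested did, and their median difference was -0.76. The interval of 1 endothelial gene, Lyve1, reached as low as that median. These counts include genes near the floor in TLR3wt livers. With no value under 5, such genes could not show a fall of that size. Examples are Wnt9b, Dll4 and Vwf, with TLR3wt means of 5.09, 5.34 and 5.46. Among the macrophage markers themselves, the intervals of Msr1, Siglec1 and Fcna reached down to -0.26, -0.62 and -0.63, short of the median of -0.76. The difference between the lists was not tested.

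**Figure D2:**
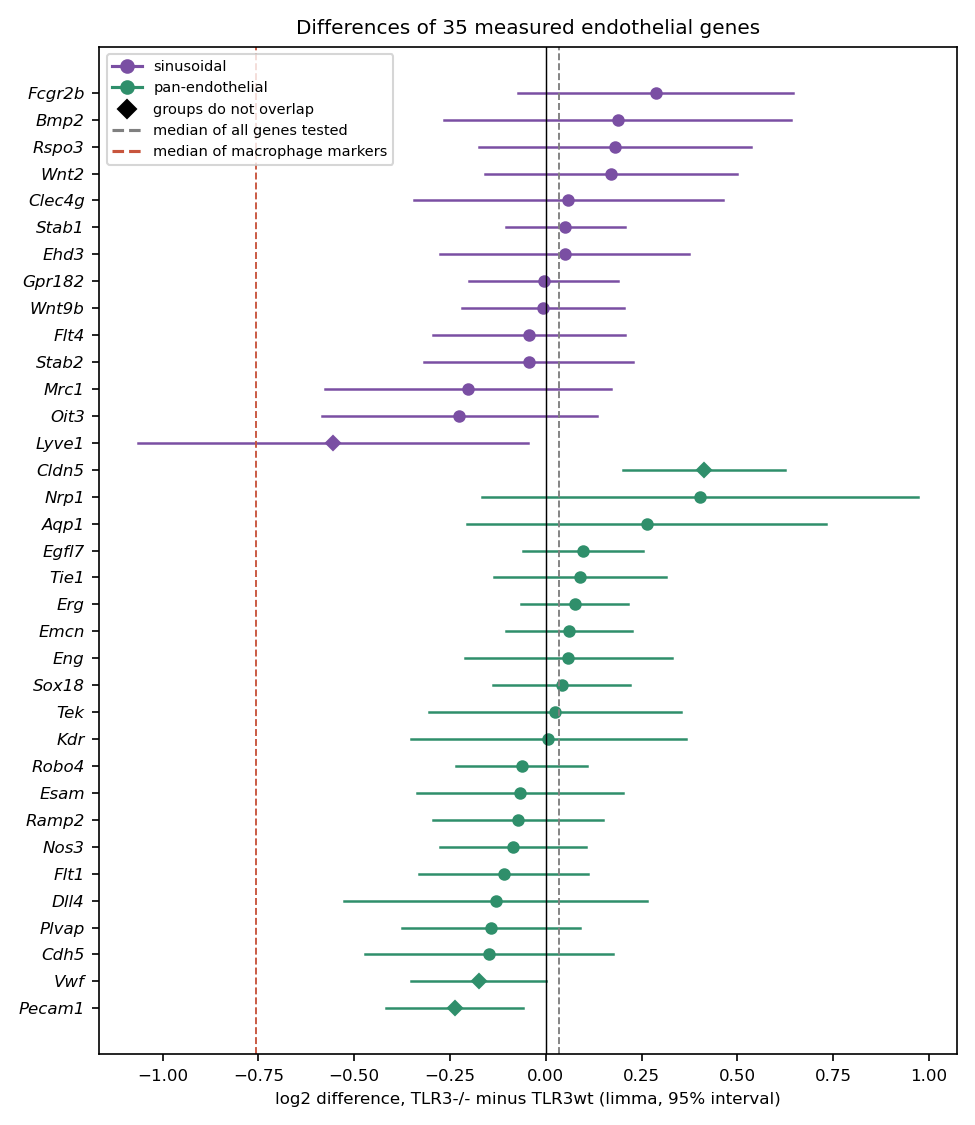
Log2 difference, TLR3-/- minus TLR3wt, with its 95% limma interval for the 35 measured genes, sinusoidal in purple and pan-endothelial in green. Diamonds mark the 4 genes whose genotypes do not overlap, and dashed lines the median of all genes tested (0.03) and of macrophage markers (-0.76).

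Scavenger and endocytic receptors, 6 genes, differed little except for Lyve1. Stab1 and Stab2 encode stabilins, which take up hyaluronan, modified lipoproteins and other waste. Stab2 was 7.79, 7.96 and 7.66 in TLR3wt replicates 1 to 3 and 7.93, 7.61 and 7.75 in TLR3-/- replicates 1 to 3. The genotypes overlapped over nearly their whole range, with a difference of -0.05 (95% interval -0.32 to 0.23). Stab1 lay between 7.19 and 7.36 in all 6 livers, a difference of 0.05 (-0.10 to 0.21). Clec4g, a C-type lectin of sinusoidal endothelium, was 9.16, 9.50 and 8.85 in TLR3wt and 9.31, 9.11 and 9.26 in TLR3-/- livers. The TLR3wt livers held both the highest and the lowest of these values, and the difference was 0.06 (-0.34 to 0.46). Clec4g was the 1 member with 2 probe sets, the other of which stood at 5 throughout.

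Lyve1, a hyaluronan receptor of sinusoidal and lymphatic endothelium, was 6.16, 6.52 and 6.71 in TLR3wt and 6.15, 6.05 and 5.52 in TLR3-/- livers. All TLR3-/- livers lay below all TLR3wt livers, but the nearest pair, 6.16 and 6.15, nearly met. The means were 5.91 ± 0.34 and 6.47 ± 0.28 (SD, n = 3 each), a difference of -0.56 (SE 0.21, 95% interval -1.06 to -0.05), with an unadjusted limma p of 0.0367 and an adjusted limma p of 0.307. The difference did not pass the test. It was -0.36 without TLR3-/- replicate 3 and -0.71 without TLR3wt replicate 1. The Fc receptor gene Fcgr2b, which clears immune complexes, was 7.23, 7.48 and 7.02 in TLR3wt and 7.75, 7.38 and 7.46 in TLR3-/- livers, a difference of 0.29 (-0.07 to 0.65). The mannose receptor gene Mrc1 was 7.63, 7.89 and 7.48 against 7.69, 7.21 and 7.49, a difference of -0.20 (-0.58 to 0.17). Both genes overlapped between the genotypes. Leaving out 1 mouse moved Fcgr2b between 0.17 (without TLR3wt replicate 3) and 0.40 (without TLR3wt replicate 2), and Mrc1 between -0.32 (without TLR3-/- replicate 1) and -0.078 (without TLR3-/- replicate 2).

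Lyve1, Mrc1, Fcgr2b and Stab1 are also known from macrophages. The mean of the 18 measured macrophage markers ranged from 7.24 to 7.64 in TLR3wt and from 6.45 to 7.0 in TLR3-/- livers, with Cd14 at the floor on all arrays. Their part in the values of these 4 genes was not tested. Leaving the 4 genes out, an alternative chosen after seeing the data, the median of the sinusoidal genes was again 0.02. It could not have moved, since Stab1 and Fcgr2b lay above it and Lyve1 and Mrc1 below it. The sameness thus says nothing about a macrophage part.

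The other sinusoidal genes were 4, all with overlapping genotypes. Oit3, a zona pellucida domain protein of sinusoidal endothelium, was 7.47, 7.71 and 7.39 in TLR3wt and 7.59, 7.12 and 7.20 in TLR3-/- livers. Of the TLR3-/- livers 2 lay below every TLR3wt liver and the other among them, and the difference was -0.23 (-0.58 to 0.13), from -0.37 without TLR3-/- replicate 1 to -0.13 without TLR3wt replicate 2. Ehd3, an endocytic recycling protein, was 8.25, 8.36 and 7.93 against 8.27, 8.06 and 8.36, a difference of 0.05 (-0.28 to 0.37). Differences were -0.0060 for the chemokine-scavenging receptor gene Gpr182 (-0.20 to 0.19) and -0.04 for Flt4, the VEGF-C receptor (-0.29 to 0.21).

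Genes for the secreted signals of sinusoidal and central vein endothelium, 4 in all, had overlapping genotypes. Bmp2 was 6.34, 6.58 and 5.92 in TLR3wt and 6.70, 6.35 and 6.35 in TLR3-/- livers. Rspo3, which amplifies Wnt signals, was 5.75, 5.80 and 5.27 in TLR3wt and 5.84, 5.71 and 5.81 in TLR3-/- livers. In both genes TLR3wt replicate 3 was the lowest of the 6 livers and the others lay together. The differences were 0.19 for Bmp2 (-0.27 to 0.64) and 0.18 for Rspo3 (-0.17 to 0.54), and without TLR3wt replicate 3 they were 0.0071 and 0.01. Wnt2 was near the floor, at 5.08, 5.43 and 5.0 against 5.24, 5.26 and 5.51, a difference of 0.17 (-0.16 to 0.50). Wnt9b was at the floor on 2 of 3 TLR3-/- arrays and at most 5.24 on any array. Values this close to the floor understate any difference.

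Receptors for endothelial growth factors overlapped between the genotypes. Kdr, the main VEGF receptor of endothelium, was 7.69, 7.95 and 7.54 in TLR3wt and 7.96, 7.52 and 7.72 in TLR3-/- livers. Each TLR3wt value had a TLR3-/- value close to it. The difference was 0.0066 (-0.35 to 0.36). Flt1, a decoy receptor for VEGF, differed by -0.11 (-0.33 to 0.11). Nrp1, a co-receptor of VEGF and semaphorins, was 8.21, 8.10 and 7.39 in TLR3wt and 8.15, 8.21 and 8.55 in TLR3-/- livers. TLR3wt replicate 3 stood alone at the low end, and the difference was 0.40 with it (-0.17 to 0.97) and 0.15 without it. The angiopoietin receptor genes Tek and Tie1 differed by 0.02 (-0.30 to 0.35) and 0.09 (-0.14 to 0.31).

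Junction and adhesion genes held the pair of pan-endothelial genes with the smallest unadjusted p, in opposite directions. Cldn5, the tight junction claudin of endothelium, was 5.69, 5.47 and 5.44 in TLR3wt and 5.91, 5.88 and 6.04 in TLR3-/- livers. Every TLR3-/- liver lay above every TLR3wt liver. The means were 5.94 ± 0.09 and 5.53 ± 0.13 (SD, n = 3 each), a difference of 0.41 (SE 0.09, 95% interval 0.20 to 0.63), which is 1.33-fold. Its unadjusted limma p was 0.00299 and its adjusted limma p 0.152, so it did not pass. Over the 14 alternative fits that held it, its adjusted p from limma ranged from 0.116 to 0.481.

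Pecam1 encodes CD31, an adhesion molecule of endothelium, platelets and leukocytes. It was 6.13, 6.36 and 6.18 in TLR3wt and 5.98, 6.01 and 5.96 in TLR3-/- livers. The TLR3-/- livers were all lower and lay close together. The difference was -0.24 (SE 0.07, 95% interval -0.42 to -0.06), with an unadjusted limma p of 0.0172 and an adjusted limma p of 0.241. Macrophages and platelets carry Pecam1 too, and the part of the macrophage markers above in its value was not tested. Cdh5, the cadherin of endothelial junctions, overlapped between the genotypes at -0.15 (-0.47 to 0.17), from -0.27 without TLR3-/- replicate 1 to -0.030 without TLR3-/- replicate 2. Esam, an adhesion molecule of tight junctions, overlapped at -0.07 (-0.34 to 0.20).

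Among the other surface proteins, Aqp1, a water channel of endothelium and bile ducts, was 8.15, 8.48 and 7.74 in TLR3wt and 8.51, 8.22 and 8.43 in TLR3-/- livers. TLR3wt replicate 3 was again the lowest, and the difference was 0.26 (-0.20 to 0.73), or 0.07 without that mouse. Eng, a co-receptor of BMP and TGF-beta signals, differed by 0.06 (-0.21 to 0.33), and Plvap, the protein of endothelial diaphragms, by -0.14 (-0.37 to 0.09). Robo4 and Ramp2, receptors of vessel guidance and of adrenomedullin, differed by -0.06 and -0.07. Emcn, the sialomucin endomucin, was above the floor in TLR3-/- replicate 1 alone, at 5.18, so no bound can be given for its difference.

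Secreted and signalling genes came next. Vwf, the platelet-binding factor of larger vessels, was 5.44, 5.52 and 5.41 in TLR3wt and 5.20, 5.24 and 5.40 in TLR3-/- livers. All TLR3-/- livers were lower, though the nearest values were 5.41 and 5.40. The difference was -0.18 (-0.35 to 0.00055), with an adjusted p from limma of 0.347. Egfl7, a matrix factor of endothelium, differed by 0.10 (-0.06 to 0.25). Dll4, the Notch ligand of endothelium, was 5.12, 5.19 and 5.72 against 5.22, 5.29 and 5.13, and its difference of -0.13 rested on TLR3wt replicate 3, being 0.06 without it. Nos3, the endothelial nitric oxide synthase, was above the floor on 2 TLR3wt arrays and on 0 of 3 TLR3-/- arrays. With a TLR3wt array at the floor too, no bound can be given for its difference. The transcription factor genes Erg and Sox18 differed by 0.08 (-0.06 to 0.22) and 0.04 (-0.14 to 0.22).

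Single mice stood at the ends of many genes. For sinusoidal genes, the median deviation from the mean of 6 mice was -0.04, 0.16 and -0.10 in TLR3wt replicates 1 to 3 and 0.11, -0.08 and 0.04 in TLR3-/- replicates 1 to 3. For pan-endothelial genes it was -0.04, 0.08 and -0.03 in TLR3wt and 0.05, -0.04 and 0.0057 in TLR3-/- livers. In both classes TLR3wt replicate 2 was highest and TLR3-/- replicate 1 next. TLR3wt replicate 3 was the lowest liver for 6 of 14 sinusoidal genes (42.9%), namely Clec4g, Fcgr2b, Ehd3, Wnt2, Rspo3 and Bmp2, and for 24% of all genes tested. TLR3-/- replicate 2 was the lowest for 11 of the 35 endothelial genes (31.4%), for 12.2% of all genes tested and for 16 of 18 macrophage markers. TLR3wt replicate 2 was the highest for 12 of 35 endothelial genes and for 13 of 18 macrophage markers, against 12.9% of all genes tested. The classes differed for other mice. TLR3wt replicate 3 was the lowest for 11 of 35 endothelial genes (31.4%) but for 1 of 18 macrophage markers, beside 24% of all genes tested. TLR3-/- replicate 1 was the highest for 11 of 35 (31.4%) against 2 of 18, beside 22.8% of all genes tested. The genotypes stood apart in 14 of the 18 macrophage markers (77.8%) and in 4 of the 35 endothelial genes (11.4%), beside 22.7% of all genes tested.

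**Figure D3:**
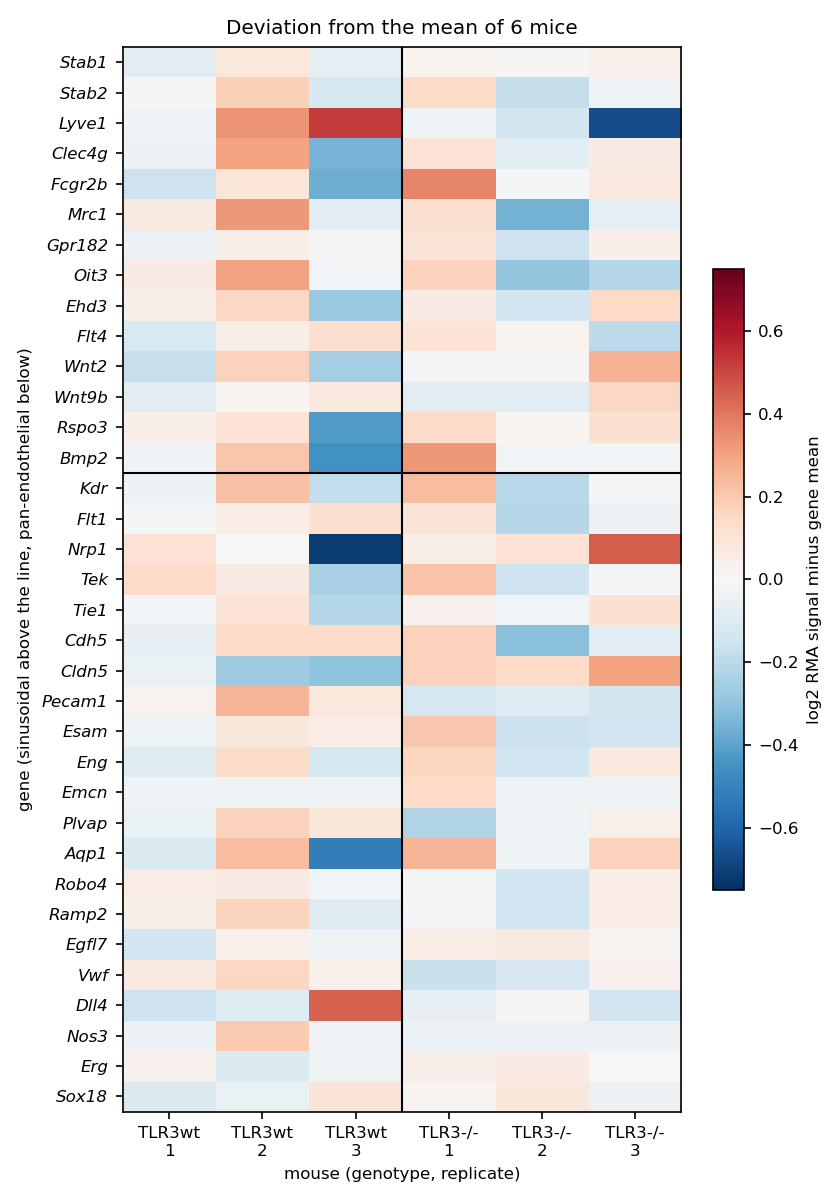
Log2 RMA signal of the 35 measured genes (rows, sinusoidal above the line) in each mouse (columns), minus the mean of the gene over 6 mice; red is above and blue below that mean. TLR3wt replicate 3 is low in Nrp1, Aqp1, Bmp2 and Rspo3, and TLR3wt replicate 2 is high in most sinusoidal genes.

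Further genes of endothelium and of the pathways around it were taken from lists made by name. In limma 0 of them passed in either direction, beside 0.087% of all genes tested. Of 35 measured other endothelial genes 21 had a lower mean, with a median difference of -0.057. Genotypes were apart in 8 of the 35, 5 lower and 3 higher, or 22.9%, close to the 22.7% of all genes tested. The adhesion molecule gene Vcam1 was 5.91, 6.58 and 6.77 in TLR3wt and 5.69, 5.34 and 5.43 in TLR3-/- livers. The TLR3-/- livers were all lower, by -0.93 on the log2 scale (limma adjusted p = 0.182). Whether the macrophage markers above have a part in the Vcam1 value was not tested. Thbd, the anticoagulant receptor thrombomodulin, was at the floor on all 3 TLR3-/- arrays and 5.25, 5.43 and 5.19 in TLR3wt livers, at least 1.22-fold lower. Clec4f stood on the same list with -0.69, but it is a Kupffer cell gene and counts among the macrophage markers too. Of 13 further endothelial transcription factors 8 had a lower mean (median -0.045), with differences of 0.36 for Foxf1, -0.16 for Maf, which specifies sinusoidal endothelium, and 0.28 for Nr2f2, a factor of venous identity.

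Of 12 measured Wnt and R-spondin receptors, feedback genes and related genes 10 had a higher mean in TLR3-/- livers, with a median of 0.22, while 39.1% of all genes tested had a lower mean and the median of all was 0.03. Genotypes were apart in 4 of the 12 (33.3%), all higher, beside 22.7% of all genes tested in either direction and 15.1% higher. Whether these genes differ as a group from all genes was not tested. The Wnt receptor gene Fzd8 was 6.38, 6.12 and 6.17 in TLR3wt and 7.03, 7.05 and 6.83 in TLR3-/- livers. The genotypes did not overlap, and the difference was 0.75 (95% interval 0.51 to 0.98, 1.68-fold). Its adjusted p from limma was 0.0765, and 0.0413 when the brighter part of the probe sets was tested alone, with 0.0413 to 0.428 over all its alternative fits. Rnf43, which removes Wnt receptors and is itself induced by Wnt, was 6.39, 6.27 and 6.56 against 6.72, 7.31 and 6.96, a difference of 0.59 (limma adjusted p = 0.201), and Fzd4 differed by 0.31.

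Of 10 measured BMP ligands and receptors, which include the member Eng, 7 had a higher mean, with a median of 0.044. Genotypes were apart in 2 (20%), beside 22.7% of all genes tested. Bmp6, made by sinusoidal endothelium, was 5.52, 5.58 and 5.57 in TLR3wt and 5.79, 5.71 and 5.89 in TLR3-/- livers. The TLR3-/- livers were all higher, with a difference of 0.24 (limma adjusted p = 0.194), while Acvr2a and Bmpr2 differed by 0.18 and 0.11. Of 7 measured Notch genes 5 had a higher mean (median 0.05), and Hes1, a Notch target, was 5.84, 5.75 and 6.2 against 6.58, 6.62 and 6.24, a difference of 0.55 (limma adjusted p = 0.212). The other Notch genes with the smallest p were Rbpj at 0.18 and Jag1 at -0.26. Of 6 measured VEGF and angiopoietin-like ligands 4 had a lower mean (median -0.10). Differences were -0.79 for Angptl4, an inhibitor of lipoprotein lipase, -0.15 for Vegfc, the ligand of Flt4, and 0.19 for Angptl6. Vegfa, the ligand of Kdr, overlapped at 0.12, while Pgf, Angpt1 and Angpt2 were at the floor on all arrays.

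**Figure D4:**
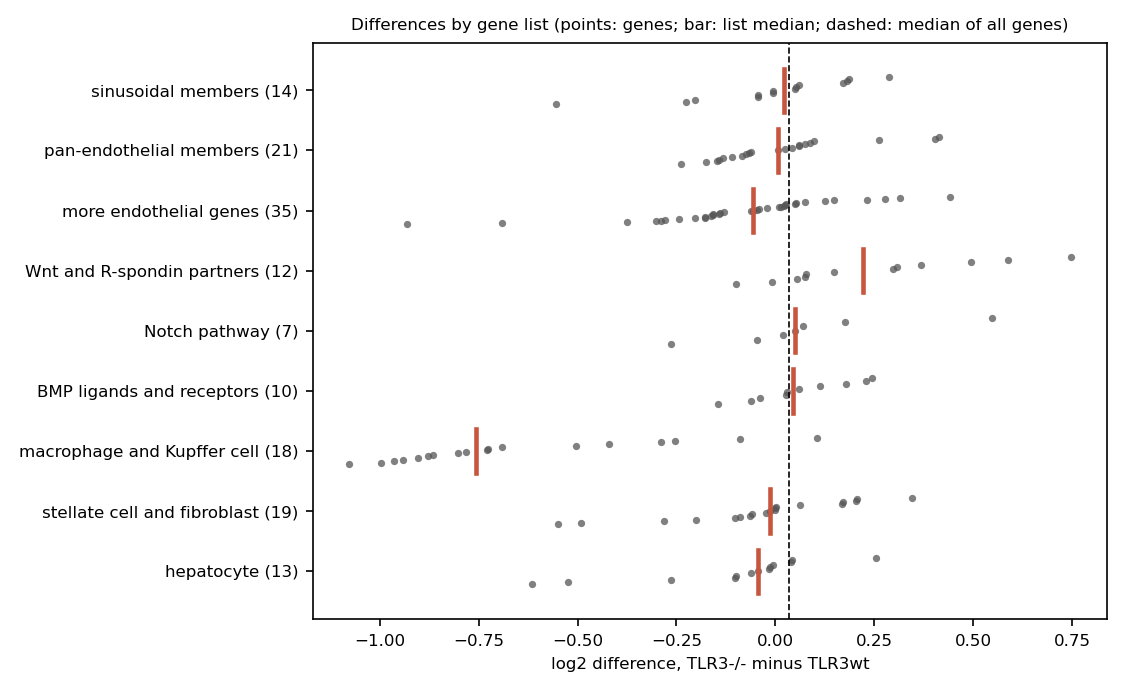
Log2 difference, TLR3-/- minus TLR3wt, of each measured gene (point) by list, with the list median as a bar and the median of all genes tested as a dashed line; numbers in brackets count the genes. The endothelial medians lie at 0.02, 0.0066 and -0.057, that of Wnt partners at 0.22 and that of macrophage markers at -0.76.

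Markers of other cell types were read beside these genes. In limma 0 of them passed, beside 0.087% of all genes tested. At an unadjusted limma p under 0.05 there were 14 of 18 macrophage markers (77.8%), all lower, against 15.7% of all genes tested. Among macrophage markers Timd4 had the smallest p, at -0.90, followed by Adgre1 (-1.00) and Marco (-1.08). Of 19 measured stellate cell and fibroblast genes 12 had a lower mean (median -0.014), with Pdgfra at 0.34, Ecm1 at 0.20 and Col3a1 at -0.55. Of 13 hepatocyte genes 10 had a lower mean (median -0.043), with Hnf4a at -0.26, Pck1 at -0.61 and Cyp2e1 at 0.25. The lymphatic genes Prox1, also a hepatocyte factor, and Reln differed by 0.53 and 0.17, and Pdpn was at the floor on all arrays. Cholangiocyte genes were at the floor in 6 of 8, and Onecut1 and Sox9 differed by -0.44 and 0.19. All 8 B cell and all 10 neutrophil genes with a probe set, and 11 of 13 T and NK cell genes, stood at the floor. Prf1 and Cd8a were at the floor in all TLR3-/- livers and in part of the TLR3wt livers, so their differences have no bound. In the erythroid and platelet list Itga2b stood at the floor in all TLR3-/- livers, at least 1.16-fold lower, and Alas2 differed by -0.22. Slc4a1 stood at the floor in all TLR3-/- livers and in TLR3wt replicate 1, so its difference has no bound.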

How the data were processed

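Liver RNA of 3 TLR3-/- and 3 TLR3wt mice was measured on 1 oligonucleotide array each, and groups were taken from the sample titles. The deposited values are log2 signals that the authors made with RMA; per the submitters' processing notes the software was Affymetrix Expression Console. RMA corrects background, normalises by quantiles and summarises probes. The lowest deposited value is 5 on each array, and the sources used here do not say what set it. Values at 5 can understate a difference. A group wholly at 5 gives a bound, "at least N-fold", where every array of the other group is above 5. With values at 5 in both groups no bound holds. The table held 0 columns of other samples.

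Probe sets were named from the array annotation, updated through gene identifiers (99.6% found) to assembly GRCm38.p6, with 21789 probe sets of 1 symbol, 1621 of several and 12147 of none. A gene was read from its probe set with the highest mean over 6 arrays. The test of genotype was limma's, version 3.58.1 under R 4.3.3 (lmFit and eBayes, default settings, two-sided, Benjamini-Hochberg over 16639 probe sets, threshold 0.05), without the 18918 probe sets at 5 on all arrays. The procedure was tested on simulated data. Intervals are limma's 95% intervals of single genes, not adjusted.

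The members, lists, filter and tests were chosen with earlier results of these data known. All 38 members are described, and of each other list the 3 genes with the smallest unadjusted p are named. Vegfa is named as a ligand, and members are not named again in a list. Alternatives covered filters, scaling, variance models, a replicate block and leaving out each mouse.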

Additional observations from a re-analysis of the deposited data

How the results depend on the processing

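All 15 alternative limma fits also passed 0 endothelial genes. The smallest adjusted p of a member in them was 0.116, and the members at an unadjusted p under 0.05 numbered 0 to 5. Alternatives that passed 0 probe sets in all could not have passed a member, and those that passed few had little room to. The count of all probe sets passing, 31, depended on the processing: it was 0 without a filter on low values (2018 at an unadjusted p under 0.05), 18 when each probe set had to exceed the floor on every array, 9 after quantile normalisation again, 14 with centred arrays, 1 with 1-symbol probe sets and 0 to 13 without 1 mouse. It was 0 without TLR3wt replicate 1, TLR3wt replicate 2 or TLR3-/- replicate 3, 1 without TLR3-/- replicate 1 or 2, and 13 without TLR3wt replicate 3. With the replicate number as a block 4 passed and 0 endothelial genes did. The values gave no sign that the numbers pair the mice. Deviations of same-numbered mice correlated at 0.05, -0.01 and -0.06, and those of differently numbered mice at -0.12 to 0.14. Such correlations cannot settle whether the mice were paired. The median of the pan-endothelial genes was -0.071 with array weights and -0.075 to 0.028 without 1 mouse. In the brighter part 14 members were left, 5 of them lower, and 1 gene of the related lists, Fzd8, passed. Of 499 values of single members under the alternatives, 29 had the opposite sign, in 11 members that differed by 0.13 or less. Under quantile normalisation again Kdr was -0.027 and Tek -0.0050, with centred arrays -0.025 and -0.0069, and with array weights -0.071 and -0.025, where Clec4g was -0.033 and Ehd3 -0.010. Without 1 mouse the range was -0.13 to 0.034 for Stab2, -0.10 to 0.23 for Clec4g, -0.056 to 0.070 for Gpr182, -0.077 to 0.14 for Ehd3, -0.11 to 0.044 for Flt4, -0.086 to 0.033 for Wnt9b, -0.11 to 0.12 for Kdr, -0.090 to 0.11 for Tek, -0.0073 to 0.15 for Eng, -0.24 to 0.057 for Dll4 and -0.0035 to 0.099 for Sox18. For Vegfa it was -0.0026 to 0.20 and for Onecut1 -1.18 to 0.14. Averaging the probe sets of a gene and leaving out Emcn and Nos3, which were above the floor in 1 genotype, the second chosen after seeing the data, gave the same medians. Neither could have changed them. The other probe set of Clec4g, at 5 throughout, did not enter the average. Emcn lay above and Nos3 below the pan-endothelial median, and neither is in the sinusoidal class.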
